A study of Mus musculus with 8 samples.

Results

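The genes described here are the nuclear receptors of the steroid hormones (Pgr, Esr1, Esr2, Nr3c1 and Nr3c2), the progesterone receptor membrane components Pgrmc1 and Pgrmc2, and the receptor chaperones Fkbp4 and Fkbp5. Probes were taken by their transcript accession, and each probe was kept apart. The array held 13 probes of these 9 genes among 55681 probes, of which those with a gene name covered 20145 symbols. All 13 probes were well above background on at least 3 of 8 arrays and were tested. The data are one-colour Agilent arrays of ovarian RNA from mice of 33 weeks, 5 arrays of ovarian neoplasia and 3 of wildtype ovary. The neoplasia mice had the genotype Pgrcre/+mPgrLsL/+, written elsewhere in the labels as Pgrcre/+PgrBLsL/+, and the other mice are labelled Wildtype. Cre is therefore driven from the Pgr locus, and an LsL allele, whose stop cassette Cre removes, is expressed in cells that have made Cre and in their descendants. All mice were cycling, and the stage of the cycle is not given. The labels do not state whether arrays came from different animals, and the p-values then describe sample-to-sample spread that may be technical.

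Steroid receptors are transcription factors that wait for their hormone in a complex with HSP90 and its partners. Pgr binds progesterone, Esr1 and Esr2 bind estradiol, Nr3c1 binds glucocorticoids, and Nr3c2 binds aldosterone as well as glucocorticoids. Fkbp4 and Fkbp5 are immunophilins that compete for a place on HSP90, where Fkbp4 favours hormone binding and Fkbp5, itself induced by glucocorticoids and progesterone, lowers it. In the mouse ovary, Esr2 is known from granulosa cells, Esr1 from theca and surface epithelium, and Pgr from granulosa cells around ovulation, while the oviduct next to the ovary expresses both Esr1 and Pgr.

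Values are the log2 of the processed signal minus the array's 75th percentile of signal, unless a signal is named, which is the linear scanner value before scaling. The 75th percentile lay at 309 to 429 on neoplasia arrays and at 462 to 515 on wildtype arrays. Between 29332 and 32920 probes were well above background on neoplasia arrays and between 33737 and 34147 on wildtype arrays. Slide row 1 held neoplasia 1 to 4, and row 2 held neoplasia 5 and the 3 wildtype arrays, so row and group overlap in neoplasia 5 alone. The wildtype arrays carried ovarian transcripts, with all 8 oocyte markers tested above background, whereas 6 of these 8 and the granulosa receptor gene Fshr were above background on no neoplasia array. The granulosa factor Foxl2 had 5.43 ± 0.21 (SD, n = 5) in neoplasia and 5.0 ± 0.13 (SD, n = 3) in wildtype (limma adjusted p = 0.125). The wildtype arrays differed from each other in oviduct and cilium genes, a list of 5 genes drawn up after their values were seen. Ovgp1, the oviductal glycoprotein, had -1.07 to 1.52 on neoplasia arrays, against 5.92, 7.99 and 0.37 on wildtype 1, 2 and 3. Foxj1, the master regulator of motile cilia, was above background on 0 of 5 neoplasia arrays and had 1.95, 2.13 and -5.27 on wildtype 1, 2 and 3, the last not above background. The summed linear level of the 5 genes, in multiples of the 75th percentile, was 0.515 to 2.93 on neoplasia arrays and 70.7, 266 and 1.44 on wildtype 1, 2 and 3. The members that passed the test and the counts of the hormone-related lists are therefore also given with wildtype 3 as the only wildtype array, where the lone array is assumed to vary like the neoplasia group.

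By limma's moderated test with Benjamini-Hochberg adjustment over all 34280 tested probes at 0.05, 1 of the 13 probes was higher in neoplasia and 6 were lower, while 6 did not pass. Of all tested probes, 29.1% passed, 15.6% higher and 13.5% lower. The higher probe was one of the Pgr probes. The lower ones were the other Pgr probe, the 3 Esr1 probes, the Esr2 probe and the Nr3c2 probe. Among these 6, the Pgr probe and Esr1 A_51_P474658 were above background on wildtype arrays alone and entered the test through them. The same 7 probes were those whose groups did not overlap, against 38.1% of all tested probes. Of these, 1 lay above wildtype, as 21.7% of all tested probes did, and 6 lay below it, as 16.3% did. With wildtype 3 as the only wildtype array, 1 probe was higher and 0 were lower at the threshold, among 778 probes called in all, and the higher one, of Pgr, was not above background on wildtype 3.

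**Figure D1:**
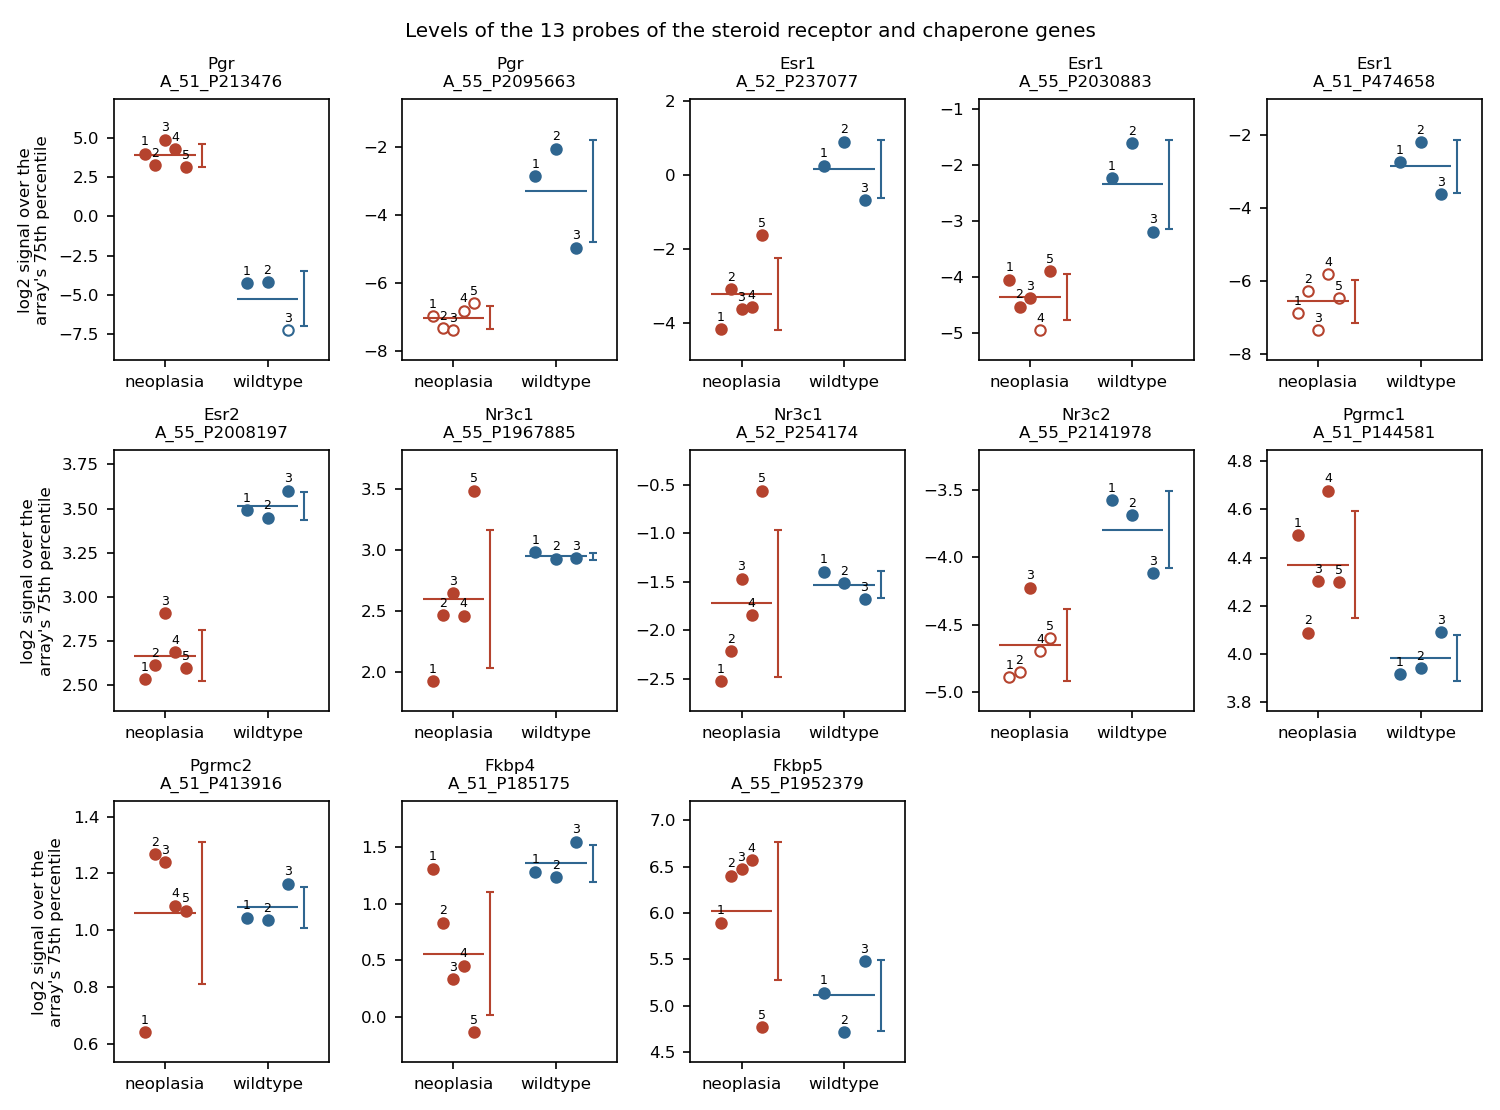
Levels of the 13 probes on each array. The y axis gives the log2 signal over the array's 75th percentile, points are arrays numbered by replicate, open points are not well above background, lines are group means and bars are 1 SD (n = 5 neoplasia, n = 3 wildtype). Both Pgr probes separate the groups in opposite directions, the Esr1, Esr2 and Nr3c2 probes are lower in all neoplasia arrays, and the other probes overlap.

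Pgr, the gene altered in these mice, was read by a pair of probes of the same transcript accession. Probe A_51_P213476 had signals of 4927, 4086, 10660, 6549 and 3128 on neoplasia 1 to 5, against 26.8, 28.2 and 3.10 on wildtype 1 to 3. Probe A_55_P2095663 had signals of 2.46, 2.69, 2.19, 3.01 and 3.74 on the neoplasia arrays, none of them above background, against 70.2, 124 and 14.9 on wildtype 1 to 3, all above background. The first probe was thus bright on every neoplasia array and at or near background in wildtype, and the second was above background in wildtype alone. The second probe was at least 2.88-fold lower in neoplasia, with measured means of -7.01 ± 0.34 (SD, n = 5) and -3.29 ± 1.5 (SD, n = 3) and a fitted difference of -3.72 ± 0.58 (SE, limma adjusted p = 0.00338). This bound sets the wildtype mean against the lowest signals that were well above background on the neoplasia arrays. The second probe passed the filter of at least 3 arrays above background through wildtype alone. With no filter on dim probes its limma adjusted p was 0.00483.

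Within each array, the log2 signal of A_51_P213476 minus that of A_55_P2095663 was 10.97, 10.57, 12.25, 11.09 and 9.71 on neoplasia 1 to 5, against -1.39, -2.14 and -2.26 on wildtype 1 to 3. Such a difference does not depend on the scaling between arrays. The groups were 12.85 apart (95% interval 11.42 to 14.28), with means of 10.92 ± 0.92 (SD, n = 5) in neoplasia and -1.93 ± 0.47 (SD, n = 3) in wildtype (exact permutation p = 0.0179, two-sided, the smallest that 56 splits allow). Over the 5 pairs of probes tested this way the adjusted p was 0.0595. Each Pgr probe alone separated the groups, in opposite directions. The groups of their difference therefore could not overlap, and its permutation p adds no support. All signals of the dimmer probe in neoplasia and 1 of 3 of the brighter one in wildtype lay below background, so this difference is a fitted value and no bound. Within wildtype, both probes were highest on wildtype 2 and lowest on wildtype 3. On wildtype 3 the brighter probe was not above background, and against that array alone it was at least 847-fold higher in neoplasia. The part of the transcript each probe covers is not given in the sources used here, nor whether either probe reads the transcript of the LsL allele. The signal of the brighter probe therefore cannot be assigned to the resident gene or to that allele, and why the probes differ was not tested.

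The authors' deposited table shows a single row for this gene, under the name of probe A_55_P2095663, and gives a neoplasia mean of 11.39 and a wildtype mean of 5.01 on its unscaled log2 scale. Its difference is 6.38, the opposite sign to that of the probe it is named after. Each of its 37932 rows equalled the log2 of the mean signal over all spots of 1 accession within 0.001, and this row averaged both Pgr probes. The fall of the dimmer probe is thus not visible in that table. The same holds for the spots of Esr1, where 12 spots of 3 probes share a row, with a difference of -3.79 in the authors' deposited table.

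By Pearson correlation over the 8 arrays, the genes whose levels were most like those of A_51_P213476 were Hand2 (r = 0.995), Mlph (r = 0.995) and Spink8 (r = 0.994). Hand2 encodes a transcription factor of progesterone-responsive uterine stroma. For A_55_P2095663 they were Atp10b (r = 0.999), Dydc2 (r = 0.995) and Ccdc150 (r = 0.995), each above background on 0 of 5 neoplasia arrays. Since tested probes had to be above background on at least 3 arrays, each was necessarily above it on all 3 wildtype arrays. Likeness of this size was common, since r exceeded 0.9 for 930 and 409 of 15467 genes, and the points of each correlation fall in 2 groups.

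The 250 bases upstream of the RefSeq start (GRCm38.p6) are printed for the receptors whose probes passed the test, so that the letters can be set beside the values. Capitals mark every match, on either strand, to AGAACA, the half-site of the progesterone and glucocorticoid receptors, AGGTCA, the estrogen receptor half-site, AAGGTCA, a site of NR5A factors that contains the preceding motif, GAANNTTC, a heat shock element core, and GGGCGG, a GC box. Esr1 has a pair of starts in the table. The Pgr and Nr3c2 windows lie inside their gene spans, which begin at chr9:8898900 and chr8:76898083. They are thus upstream of a later start, and the bases before the beginning of those spans are not shown.
Pgr, chr9:8899583-8899832, plus strand: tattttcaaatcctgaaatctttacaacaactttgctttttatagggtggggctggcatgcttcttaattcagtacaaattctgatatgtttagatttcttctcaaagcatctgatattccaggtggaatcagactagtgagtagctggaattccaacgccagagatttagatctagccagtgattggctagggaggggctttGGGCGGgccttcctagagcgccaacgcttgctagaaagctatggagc
Esr1, chr10:4611739-4611988, plus strand: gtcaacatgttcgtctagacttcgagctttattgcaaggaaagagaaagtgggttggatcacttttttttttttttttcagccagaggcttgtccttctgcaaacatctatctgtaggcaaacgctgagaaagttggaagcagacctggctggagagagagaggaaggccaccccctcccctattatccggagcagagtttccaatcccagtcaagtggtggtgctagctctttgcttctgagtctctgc
Esr1, chr10:4709908-4710157, plus strand: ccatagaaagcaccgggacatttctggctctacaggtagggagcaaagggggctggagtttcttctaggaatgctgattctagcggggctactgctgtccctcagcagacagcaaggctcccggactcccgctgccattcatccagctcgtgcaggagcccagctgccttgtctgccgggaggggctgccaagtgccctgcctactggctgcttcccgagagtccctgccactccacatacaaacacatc
Esr2, chr12:76177260-76177509, minus strand: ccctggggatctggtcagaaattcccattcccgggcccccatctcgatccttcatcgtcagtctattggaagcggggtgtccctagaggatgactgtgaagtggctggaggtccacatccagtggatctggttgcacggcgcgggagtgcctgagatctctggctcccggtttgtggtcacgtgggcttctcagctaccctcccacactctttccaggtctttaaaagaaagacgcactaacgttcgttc
Nr3c2, chr8:76902080-76902329, plus strand: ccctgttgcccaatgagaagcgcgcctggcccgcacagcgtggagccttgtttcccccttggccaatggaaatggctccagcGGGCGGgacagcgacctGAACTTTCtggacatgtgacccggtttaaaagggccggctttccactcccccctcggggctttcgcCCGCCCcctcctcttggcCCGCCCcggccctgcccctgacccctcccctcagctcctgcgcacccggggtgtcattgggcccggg
Neither Esr1 window nor the Esr2 window held any of the 5 motifs, and Pgr held 1 GC box, 47 bases upstream of its start. Nr3c2 held 3 GC boxes and a heat shock element core whose first base lies 151 bases upstream. Of 32851 promoter windows of the same length, 16.1% held AGAACA, 14.0% held AGGTCA, 4.08% held AAGGTCA, 6.69% held GAANNTTC and 32.7% held GGGCGG.

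Esr1, the estrogen receptor alpha gene, was lower in neoplasia by each of 3 probes. A_52_P237077, printed in 10 spots, had mean signals of 17.2, 50.4, 29.3, 28.4 and 117 on neoplasia 1 to 5, against 612, 968 and 291 on wildtype 1 to 3. Every neoplasia array lay below every wildtype array, with neoplasia 5 nearest to them. The level was -3.22 ± 0.97 (SD, n = 5) in neoplasia and 0.17 ± 0.79 (SD, n = 3) in wildtype, 10.4-fold lower (log2 difference -3.38 ± 0.58 SE, limma adjusted p = 0.00515). The SD between the spots of an array, on the log2 scale, was 0.15 to 0.41 on neoplasia arrays and 0.06 to 0.08 on wildtype arrays, which is less than the spread between arrays of a group. On neoplasia 1, 8 of 10 spots were above background, and on the other arrays all 10 were.

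The other Esr1 probes were dimmer. A_55_P2030883 had signals of 18.6, 18.5, 17.5, 10.9 and 24.0 on neoplasia 1 to 5, against 109, 169 and 50.7 on wildtype 1 to 3, with 4 of 5 neoplasia arrays above background. It was lower by 4.06-fold (log2 difference -2.02 ± 0.38 SE, limma adjusted p = 0.00757). A_51_P474658 was above background on 0 of 5 neoplasia arrays and had signals of 76.4, 112 and 37.3 on wildtype 1 to 3, at least 3.88-fold lower in neoplasia, with means of -6.56 ± 0.58 (SD, n = 5) and -2.86 ± 0.72 (SD, n = 3) (limma adjusted p = 0.000767). A_51_P474658 passed the filter of at least 3 arrays above background through wildtype alone. With no filter on dim probes its limma adjusted p was 0.00109. Over the 8 arrays the 3 probes had Pearson correlations of 0.89 to 0.92 with each other, as a description of points that fall in 2 groups.

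The 3 Esr1 probes and the dimmer Pgr probe ranked the wildtype arrays alike, with wildtype 2 highest and wildtype 3 lowest, and this is also the order of Ovgp1 and Foxj1. The order is not particular to oviduct genes. Zbtb16, Glul and Hand2, which were higher in neoplasia, also had it, whereas Sgk1 and Dusp1 were highest on wildtype 3. How many of all probes share the order was not counted. Tekt1 and Dnah5, axonemal genes, gave 1.76, 2.09 and -3.23 and 1.45, 1.55 and -6.27 on wildtype 1, 2 and 3, and were above background on 0 of 5 neoplasia arrays. Pax8, a transcription factor of oviduct epithelium, was above background on wildtype 1 and 2 alone. Epcam, an epithelial adhesion gene, had -7.11 to -2.81 on neoplasia arrays, against -0.87, -0.11 and -2.43 on wildtype 1, 2 and 3. The epithelial markers did not move together. Of 5 tested, Epcam among them, 2 were higher and 2 lower in neoplasia, with a median difference of 2.17. Their summed level was 170 to 765 on neoplasia arrays and 11.4 to 65.1 on wildtype arrays. Most theca and luteal markers were lower. Of 5 theca and interstitial markers tested, 0 were higher and 4 lower in neoplasia. Their summed levels were 2.94 to 3.54 on neoplasia arrays and 19.5 to 32.6 on wildtype arrays. All 7 luteal markers were lower, with sums of 14.9 to 32.9 on neoplasia arrays and 282 to 518 on wildtype arrays. Gli1, a hedgehog effector of theca cells, had a log2 difference of -5.52 ± 0.71 and the theca gene Hsd3b6 one of -9.08 ± 0.60 (SE, limma adjusted p = 0.00142 and 5.01e-05), with 3 and 2 of 5 neoplasia arrays above background. In these whole-tissue samples fewer cells of a type and less RNA per cell cannot be told apart, and the part of epithelial, theca and luteal content in the Esr1 and Pgr results was not tested. On wildtype 3, with little of the oviduct and cilium transcripts, Esr1 by A_52_P237077 was at -0.66, above the highest neoplasia array at -1.62. Against wildtype 3 alone, the log2 differences were -2.55 ± 0.89 for that probe and -1.18 ± 0.47 for A_55_P2030883 (SE, limma adjusted p = 0.225 and 0.282). A_51_P474658, above background on no neoplasia array, was at least 2.27-fold lower than on wildtype 3. For the dimmer Pgr probe wildtype 3 lay below the mean of the lowest signals well above background on the neoplasia arrays, so no fold against that array can be given.

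**Figure D2:**
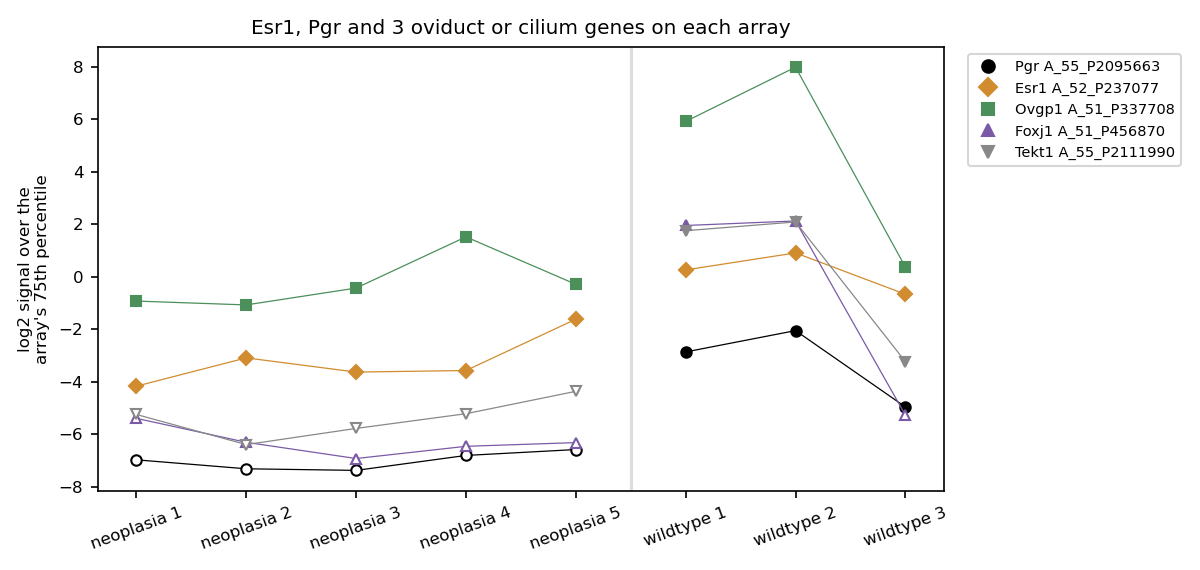
Levels of the Pgr probe A_55_P2095663, the Esr1 probe A_52_P237077 and the oviduct or cilium genes Ovgp1, Foxj1 and Tekt1 on each array, as log2 signal over the array's 75th percentile. Open symbols are not well above background, and lines join the arrays of a group as a guide to the eye. All 5 are highest on wildtype 2 and drop on wildtype 3, where Esr1 is still above the neoplasia arrays.

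Among the neoplasias, 2 of 3 Esr1 probes were highest in neoplasia 5, and A_51_P474658, below background on all of them, was not. Of the 6 smooth muscle and fibroblast markers Acta2, Cnn1, Des and Col1a1 were highest in neoplasia 5, Myh11 in neoplasia 1 and Pdgfra in neoplasia 3. The summed level of the smooth muscle and fibroblast markers was 9.43 to 160 on neoplasia arrays, with neoplasia 5 at the top, and 81.7 to 180 on wildtype arrays. Of these 6 markers 1 was lower and 0 were higher in neoplasia. The sums of endothelial and red cell markers were also highest in neoplasia 5, at 19.5 and 1716. Their part in the Esr1 level of neoplasia 5 was not tested. Within slide row 2, which sets neoplasia 5 against the wildtype arrays, the log2 difference of A_52_P237077 was -1.79, a value with no spread between neoplasias. With slide row as a block it was also -1.79, and the call was lost.

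Esr2, the estrogen receptor beta gene, remained bright in both groups. Its probe A_55_P2008197 had signals of 1793, 2625, 2724, 2171 and 2170 on neoplasia 1 to 5, against 5747, 5620 and 5604 on wildtype 1 to 3. All neoplasia arrays lay below all wildtype arrays, and the wildtype signals hardly differed. The level was 2.67 ± 0.14 (SD, n = 5) in neoplasia and 3.51 ± 0.08 (SD, n = 3) in wildtype, 1.80-fold lower (log2 difference -0.85 ± 0.17 SE, limma adjusted p = 0.0103). The call was lost without wildtype 1 (limma adjusted p = 0.0537) and with wildtype 3 as the only wildtype array (-0.93, limma adjusted p = 0.241). Most granulosa markers were also lower, by much more than Esr2. Of 7 tested, 0 were higher and 5 lower in neoplasia. Their median log2 difference was -5.86, or -4.73 with bounds for genes not above background in a group, against -0.85 for Esr2. The summed level of the 7 was 42.6 to 72.4 on neoplasia arrays and 130 to 176 on wildtype arrays. Foxl2 was 1 of the 2 that did not pass, and its mean was higher in neoplasia than in wildtype. It is bright and included in the sum, which therefore does not describe the 5 lower markers alone. The part of granulosa content in the Esr2 result was not tested.

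The change of Esr1 was set against that of Esr2 within each array. Esr1 minus Esr2 was -6.70, -5.70, -6.54, -6.26 and -4.21 on neoplasia 1 to 5, against -3.23, -2.54 and -4.27 on wildtype 1 to 3. Neoplasia 5 and wildtype 3 overlapped. The mean difference between groups was -2.54 (95% interval -4.26 to -0.82), with -5.88 ± 1.01 (SD, n = 5) in neoplasia and -3.34 ± 0.87 (SD, n = 3) in wildtype (exact permutation p = 0.0357, adjusted p = 0.0595 over 5 pairs). The adjustment counts the Pgr pair, which adds no support and lowers this adjusted p. With wildtype 3 as the only wildtype array the difference was -1.62. These values compare changes and not the levels of the receptors, since probes differ in brightness.

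Nr3c1, the glucocorticoid receptor gene, did not pass the test. Probe A_55_P1967885 had signals of 1174, 2363, 2271, 1857 and 4023 on neoplasia 1 to 5, against 4034, 3925 and 3536 on wildtype 1 to 3. After scaling, neoplasia 1 to 4 lay below all wildtype arrays and neoplasia 5 above them, while the wildtype arrays lay close together. Its level was 2.60 ± 0.57 (SD, n = 5) in neoplasia and 2.95 ± 0.03 (SD, n = 3) in wildtype, a log2 difference of -0.35 with a 95% interval of -1.09 to 0.39 (limma adjusted p = 0.429). Without neoplasia 5 the difference was -0.58 (limma adjusted p = 0.0681). The second probe, A_52_P254174, ordered the neoplasias almost alike, with a difference of -0.19 (interval -1.14 to 0.76, limma adjusted p = 0.747) and a correlation with the first of 0.94 over 8 arrays. Both turned positive in slide row 2, at 0.54 and 0.97. The second passed there as higher (limma adjusted p = 0.0458), with the spread taken from the wildtype arrays, since neoplasia 5 is the one neoplasia of that row.

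Nr3c2, the mineralocorticoid receptor gene, was close to background. Probe A_55_P2141978 had signals of 10.4, 14.9, 19.4, 13 and 14.8 on neoplasia 1 to 5, against 42.8, 39.9 and 26.5 on wildtype 1 to 3. It was above background on 1 of 5 neoplasia arrays and on all wildtype arrays, and the groups did not overlap. The level was -4.65 ± 0.26 (SD, n = 5) in neoplasia and -3.80 ± 0.29 (SD, n = 3) in wildtype (log2 difference -0.86 ± 0.23 SE, limma adjusted p = 0.0267). The call was lost without wildtype 1 or 2 or neoplasia 4 (largest limma adjusted p = 0.121) and with quantile normalization, and the difference became 0.08 with normexp background correction. With wildtype 3 as the only wildtype array it was -0.53 (limma adjusted p = 0.516). Nr3c1 minus Nr3c2 within arrays differed by 0.50 between groups (95% interval -0.29 to 1.30), with 7.25 ± 0.51 (SD, n = 5) in neoplasia and 6.75 ± 0.27 (SD, n = 3) in wildtype (exact permutation p = 0.143, adjusted p = 0.179).

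Pgrmc1 and Pgrmc2, haem-binding membrane proteins related by sequence and not to the nuclear receptors, did not pass the test. Pgrmc1 signals were 6954, 7289, 7158, 8629 and 7047 on neoplasia 1 to 5, against 7705, 7902 and 7873 on wildtype 1 to 3. The scaled levels overlapped at neoplasia 2 and wildtype 3, with 4.37 ± 0.22 (SD, n = 5) in neoplasia and 3.98 ± 0.10 (SD, n = 3) in wildtype, a log2 difference of 0.39 (95% interval -0.05 to 0.83, limma adjusted p = 0.158). The sign of this difference depended on scaling, at -0.12 with quantile normalization, -0.21 with spike-in scaling and -0.08 in the authors' deposited table. Pgrmc2 signals were 483, 1031, 858, 716 and 752 on neoplasia 1 to 5, against 1053, 1055 and 1036 on wildtype 1 to 3. Its scaled level was 1.06 ± 0.25 (SD, n = 5) in neoplasia and 1.08 ± 0.07 (SD, n = 3) in wildtype, a log2 difference of -0.02 (95% interval -0.48 to 0.44, limma adjusted p = 0.949). The difference of the pair within arrays was 0.41 higher in neoplasia (95% interval -0.19 to 1.01, exact permutation p = 0.179).

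Fkbp4 and Fkbp5 lay on opposite sides of 0, and neither passed the test alone. Fkbp4 signals were 764, 763, 458, 462 and 327 on neoplasia 1 to 5, against 1241, 1212 and 1347 on wildtype 1 to 3. After scaling, neoplasia 1 reached the wildtype range and the other neoplasias lay below it. The level was 0.56 ± 0.54 (SD, n = 5) in neoplasia and 1.35 ± 0.17 (SD, n = 3) in wildtype, a log2 difference of -0.79 (95% interval -1.52 to -0.07, limma adjusted p = 0.0915). It passed without neoplasia 1 (-0.98, limma adjusted p = 0.0332), with quantile normalization (-0.96, limma adjusted p = 0.0412) and in the authors' deposited table (-1.27, limma adjusted p = 0.0173). It also passed with array weights (-0.74, limma adjusted p = 0.0216). Within slide row 2 the difference was -1.49.

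Fkbp5 was the brightest probe of the set. Its signals were 18391, 36220, 32277, 31982 and 9772 on neoplasia 1 to 5, against 17979, 13528 and 20589 on wildtype 1 to 3. Neoplasia 1 to 4 lay above all wildtype arrays after scaling, and neoplasia 5 lay within their range. The level was 6.02 ± 0.75 (SD, n = 5) in neoplasia and 5.11 ± 0.38 (SD, n = 3) in wildtype, a log2 difference of 0.91 (95% interval -0.07 to 1.89, limma adjusted p = 0.137). Without neoplasia 5 the difference was 1.22 (limma adjusted p = 0.0109), and with array weights it was 1.18 (limma adjusted p = 0.0122). Within slide row 2, where neoplasia 5 stands alone, it was -0.34. Neoplasia 5 was thus lowest for Fkbp5 and highest for both Nr3c1 probes, for 2 of 3 Esr1 probes and for the summed smooth muscle and fibroblast markers, and the part of its cell content in these values was not tested.

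Within arrays, Fkbp5 minus Fkbp4 was 4.59, 5.57, 6.14, 6.11 and 4.90 on neoplasia 1 to 5, against 3.86, 3.48 and 3.93 on wildtype 1 to 3. All neoplasia arrays lay above all wildtype arrays, neoplasia 5 included. The groups differed by 1.71 (95% interval 0.65 to 2.76), with 5.46 ± 0.70 (SD, n = 5) in neoplasia and 3.76 ± 0.24 (SD, n = 3) in wildtype (exact permutation p = 0.0357, adjusted p = 0.0595 over 5 pairs). Here too the Pgr pair lowers the adjusted p. The difference was 1.54 to 1.92 without any 1 array and 1.53 with wildtype 3 as the only wildtype array.

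**Figure D3:**
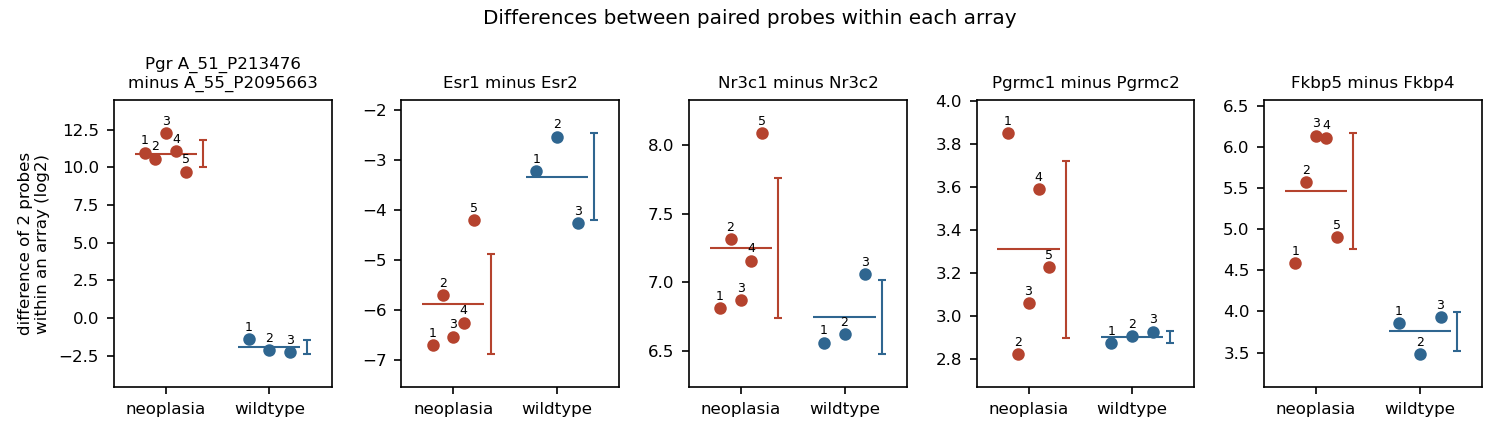
Log2 difference of a pair of probes within each array, for 5 pairs. Points are arrays numbered by replicate, lines are group means and bars are 1 SD (n = 5 neoplasia, n = 3 wildtype). The Pgr probes and Fkbp5 minus Fkbp4 separate the groups, Esr1 minus Esr2 overlaps at neoplasia 5 and wildtype 3, and the other pairs overlap.

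The promoter windows of the immunophilin pair are shown because their probes leaned in opposite directions, with capitals as above.
Fkbp4, chr6:128438657-128438906, minus strand: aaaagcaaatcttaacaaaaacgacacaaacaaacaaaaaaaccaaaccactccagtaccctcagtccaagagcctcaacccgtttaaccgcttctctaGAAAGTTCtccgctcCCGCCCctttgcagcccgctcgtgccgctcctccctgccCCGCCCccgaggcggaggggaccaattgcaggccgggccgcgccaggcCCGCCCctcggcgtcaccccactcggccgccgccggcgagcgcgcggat
Fkbp5, chr17:28486150-28486399, minus strand: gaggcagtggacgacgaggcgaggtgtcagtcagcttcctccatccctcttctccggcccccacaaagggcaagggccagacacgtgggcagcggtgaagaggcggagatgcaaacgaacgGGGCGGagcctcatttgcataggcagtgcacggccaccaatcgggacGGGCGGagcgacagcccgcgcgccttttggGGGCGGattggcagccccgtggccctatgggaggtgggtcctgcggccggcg
Both held 3 GC boxes. Fkbp4 also held a heat shock element core, 151 bases upstream as in Nr3c2, and Fkbp5 held none of the other 4 motifs. Of the other genes, Pgrmc1 held AGAACA once and 4 GC boxes, and Pgrmc2 held 2 GC boxes.

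The direction of the probes of intermediate size was set against the scaling. The median of all tested probes was 0.11 in the values used here, 0.22 with normexp background correction, 0.06 with quantile normalization, -0.49 with spike-in scaling and -0.35 in the authors' deposited table. The calls were 53.7% higher in the values used here, 67.7% with normexp, 51.6% with quantile normalization, 14.6% with spike-in scaling and 20.2% in the authors' deposited table. Both Pgr probes, the 3 Esr1 probes, Esr2 and Fkbp4 kept their sign in each of these, the deposited table being read only for genes with 1 probe. Pgrmc1 and Nr3c2 changed sign in at least 1.

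**Figure D4:**
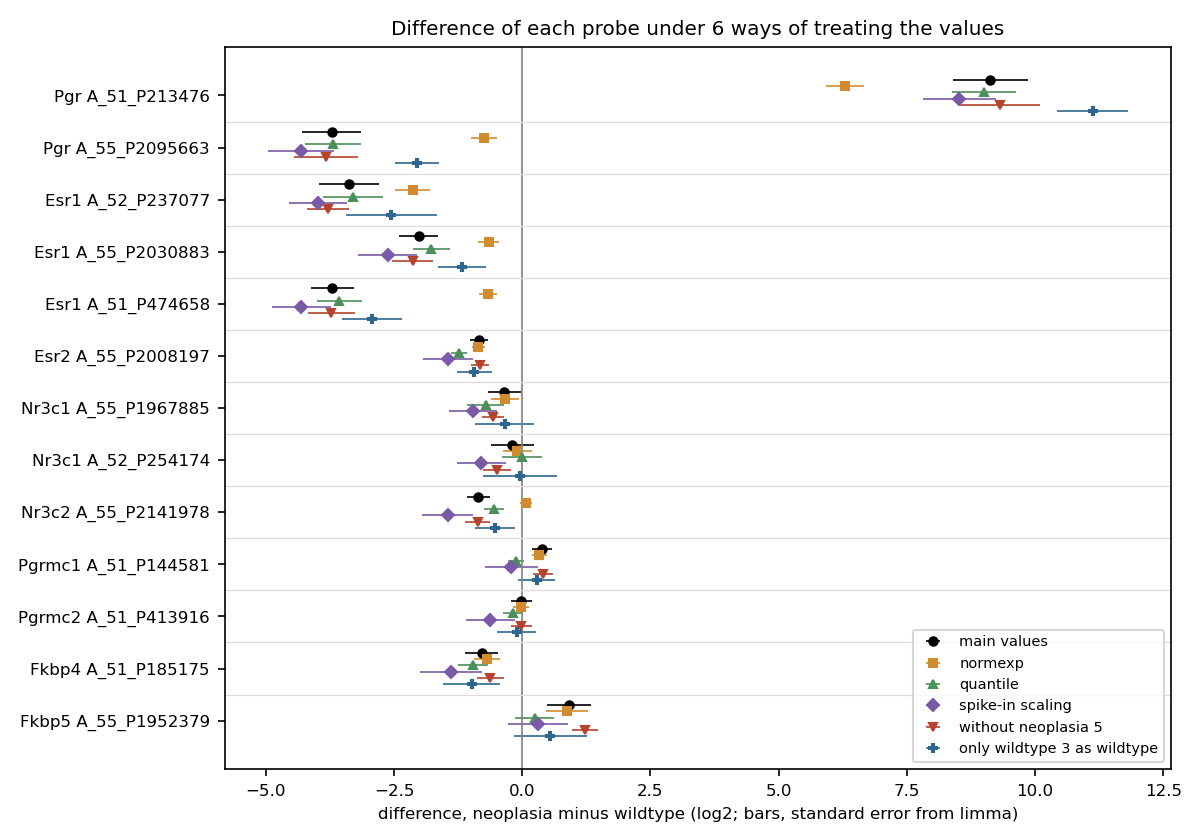
Difference of each probe, neoplasia minus wildtype on the log2 scale, under 6 ways of treating the values; bars are limma's standard errors. The Pgr and Esr1 probes keep their sides, with smaller sizes under normexp for dim probes, and Nr3c2 and Pgrmc1 cross 0. Values of both Pgr probes and of Esr1 A_51_P474658 rest in part on signals below background.

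Partners of the receptors showed few calls, and the counts of the lists are to be read against the 15.6% of all tested probes that were higher and the 13.5% that were lower. With wildtype 3 as the only wildtype array, 0 genes passed among the HSP90 machinery, the coregulators and the membrane receptors, 1 was higher and 1 lower among the enzymes, and 1 was higher and 0 lower in each of the estrogen-induced and progesterone-induced lists. Of 19 HSP90 machinery genes, the chaperones and co-chaperones that hold receptors ready for hormone, 1 was higher in neoplasia and 0 were lower, with a median log2 difference of 0.30 against 0.11 over all tested probes. All 19 were above background on all 8 arrays. The 25328 probes above background on all 8 arrays had a median of 0.23, with 5053 higher and 2468 lower. Hspa8, the constitutive HSP70, had 7.72 ± 0.22 (SD, n = 5) in neoplasia and 7.05 ± 0.13 (SD, n = 3) in wildtype (difference 0.66 ± 0.20 SE, limma adjusted p = 0.0368). No gene of the list was called when wildtype 1, 2 or 3 or neoplasia 1, 3 or 4 was left out, and 5 were higher without neoplasia 5. With quantile normalization 0 were higher and 5 lower, the median was -0.17 and Hspa8 was at -0.17, and with spike-in scaling the median was -0.30. HSP90 itself, Hsp90aa1 and Hsp90ab1, differed by 0.52 and -0.11 (limma adjusted p = 0.185 and 0.649).

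Of 13 receptor coregulators, 2 were higher, a share close to the 15.6% of all tested probes. By contrast, 0 were lower, against 13.5% of all tested probes, and the median was -0.01. The 2 higher genes were the acetyltransferase Ep300 (difference 0.97 ± 0.28 SE, limma adjusted p = 0.0343) and the deacetylase Hdac3 (0.94 ± 0.26 SE, limma adjusted p = 0.0285). Both calls were lost when any 1 wildtype array was left out, and also without neoplasia 1 or 2 for Ep300 and without neoplasia 3 or 4 for Hdac3 (largest limma adjusted p = 0.125 and 0.109). The p160 coactivators Ncoa1, Ncoa2 and Ncoa3 had differences of -0.29, 0.38 and -0.09, and none passed.

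Of 6 membrane steroid receptors, 0 were higher and 2 lower. Paqr6, a progestin receptor of the PAQR family, had -3.73, -2.60, -3.34, -3.28 and -2.03 on neoplasia 1 to 5, against 0.40, 0.54 and 0.60 on wildtype 1 to 3 (difference -3.51 ± 0.37 SE, limma adjusted p = 0.000565). Paqr8, of the same family, had -2.64 ± 0.31 (SD, n = 5) in neoplasia and -1.55 ± 0.18 (SD, n = 3) in wildtype (difference -1.09 ± 0.23 SE, limma adjusted p = 0.0114), a call lost without wildtype 2 (limma adjusted p = 0.0592). Neither gene's groups overlapped, and Paqr6 was even among the wildtype arrays. Gper1, the membrane estrogen receptor, differed by 1.28 (limma adjusted p = 0.106).

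Enzymes that set the steroid a receptor meets changed in both directions, with 2 of 5 higher and 2 lower. Hsd11b1, which makes active glucocorticoid from its inert 11-keto form, had 7.93, 6.57, 7.63, 6.11 and 5.93 on neoplasia 1 to 5, against -1.78, -0.38 and -2.85 on wildtype 1 to 3. Its difference was 8.51 ± 0.65 SE (limma adjusted p = 0.000104). Hsd11b2, which inactivates glucocorticoid, had -2.33 ± 2.29 (SD, n = 5) in neoplasia and -2.25 ± 0.34 (SD, n = 3) in wildtype and did not pass (limma adjusted p = 0.967). Sult1e1, the estrogen sulfotransferase, was above background on 5 of 5 neoplasia arrays and 0 of 3 wildtype arrays and was at least 78.0-fold higher, with means of 0.89 ± 3.12 (SD, n = 5) and -7.38 ± 0.03 (SD, n = 3) (limma adjusted p = 0.00761). Its bound was at least 33.7-fold without neoplasia 2 and at least 145-fold without neoplasia 4. Srd5a1, the steroid 5-alpha-reductase, had 0.99 ± 0.46 (SD, n = 5) in neoplasia and 3.81 ± 0.07 (SD, n = 3) in wildtype (difference -2.81 ± 0.28 SE, limma adjusted p = 0.000394). Hsd17b2, which oxidises estradiol, was lower by 4.05 log2 units, above background on 2 of 5 neoplasia arrays, and lost its call without any 1 wildtype array or without neoplasia 1, 3 or 4 (largest limma adjusted p = 0.122).

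Although Nr3c1 did not pass, most of the listed genes that glucocorticoids induce were higher. Of 11 tested, 10 were higher in neoplasia and 0 lower, with a median difference of 1.35 against 0.11 over all tested probes. All 11 were above background on all 8 arrays, and the median over all probes of that kind was 0.23. Zbtb16, a transcriptional repressor that is also a progesterone target, had 5.26, 4.91, 4.76, 4.29 and 2.17 on neoplasia 1 to 5, against 0.51, 1.87 and -1.20 on wildtype 1 to 3 (difference 3.88 ± 0.84 SE, limma adjusted p = 0.0126). For Zbtb16, neoplasia 5 was the lowest of its group, as it was for Fkbp5. The list as a whole did not share this order, and Ddit4 was lowest in neoplasia 4. Glul, the glutamine synthetase, had 7.19, 8.03, 7.32, 6.38 and 5.13 on neoplasia 1 to 5, against 3.50, 4.02 and 2.41 on wildtype 1 to 3 (difference 3.50 ± 0.65 SE, limma adjusted p = 0.00683). Ddit4, an mTOR inhibitor, had 6.68 ± 0.59 (SD, n = 5) in neoplasia and 3.97 ± 0.05 (SD, n = 3) in wildtype (difference 2.71 ± 0.33 SE, limma adjusted p = 0.00116), and the metallothionein Mt2 had 9.35 ± 0.21 (SD, n = 5) and 7.30 ± 0.34 (SD, n = 3) (difference 2.06 ± 0.22 SE, limma adjusted p = 0.000606). These genes also respond to other stimuli, Ddit4 to low oxygen and Mt2 to metals. Sgk1, a kinase gene induced by both corticosteroid receptors, had 4.87 ± 0.82 (SD, n = 5) in neoplasia and 4.74 ± 0.48 (SD, n = 3) in wildtype (limma adjusted p = 0.856). The list had 6 higher with quantile normalization, 3 with spike-in scaling, where its median was 0.75, 7 without wildtype 1 or 2 or neoplasia 3, and 1 with wildtype 3 as the only wildtype array, where its median was 1.67. Macrophage and red cell markers also moved, with 3 of 3 and 4 of 4 higher in neoplasia, and their part in this list was not tested.

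Genes that estrogen induces in the mouse uterus did not move together. Of 4 tested, 1 was higher and 1 lower, with a median of -0.76. Ltf, lactotransferrin, had -4.29, -4.11, -0.34, -0.43 and -2.54 on neoplasia 1 to 5, against 3.44, 4.46 and -0.31 on wildtype 1 to 3 (difference -4.87 ± 1.32 SE, limma adjusted p = 0.0280). Wildtype 3 lay beside the highest neoplasias, and the call was lost without wildtype 1, wildtype 2 or neoplasia 1 (largest limma adjusted p = 0.109). C3, the complement component, had 8.78 ± 0.66 (SD, n = 5) in neoplasia, against 5.50, 6.19 and 1.73 on wildtype 1 to 3 (difference 4.31 ± 0.93 SE, limma adjusted p = 0.0125). Both genes were lowest on wildtype 3 within their group, as Ovgp1 was.

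Of 9 tested genes that progesterone induces in the mouse uterus, 2 were higher and 3 lower, with a median of 0.04. Hand2 had 6.01, 4.33, 6.20, 5.72 and 3.42 on neoplasia 1 to 5, against -4.62, -3.54 and -6.98 on wildtype 1 to 3, and Acod1, which makes itaconate, was at least 8.92-fold higher, with means of -2.19 ± 1.1 (SD, n = 5) in neoplasia and -6.15 ± 0.48 (SD, n = 3) in wildtype (limma adjusted p = 0.000204 for Hand2 and 0.00298 for Acod1). Ihh, a hedgehog ligand and a classic progesterone target of uterine epithelium, had -0.61, -3.03, -3.21, 0.32 and -2.85 on neoplasia 1 to 5, against 1.47, 1.46 and 2.83 on wildtype 1 to 3 (difference -3.80 ± 0.87 SE, limma adjusted p = 0.0159), a call lost without wildtype 1 or 3 (largest limma adjusted p = 0.0628). Il13ra2, a decoy receptor for interleukin 13, was lower by 2.53 log2 units (limma adjusted p = 0.0282), and Nr2f2, a stromal nuclear receptor, by 0.73 (limma adjusted p = 0.0419), and both calls were lost when any 1 wildtype array was left out (largest limma adjusted p = 0.0900 and 0.158). Prl8a2, a decidual prolactin, was above background on 5 of 5 neoplasia arrays and 0 of 3 wildtype arrays, at least 800-fold higher (limma adjusted p = 0.00448). Its levels were 0.24, 0.52, 5.13, 7.82 and 7.50 on neoplasia 1 to 5, and the bound ran from 430-fold without neoplasia 4 and 455-fold without neoplasia 5 to 1524-fold and 1600-fold without neoplasia 2 and 1. Dio3, the other decidual marker tested, was above background on 1 of 5 neoplasia arrays and lower by 3.57 log2 units (limma adjusted p = 0.0157), a call lost without wildtype 1 or 2 (largest limma adjusted p = 0.0635).

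**Figure D5:**
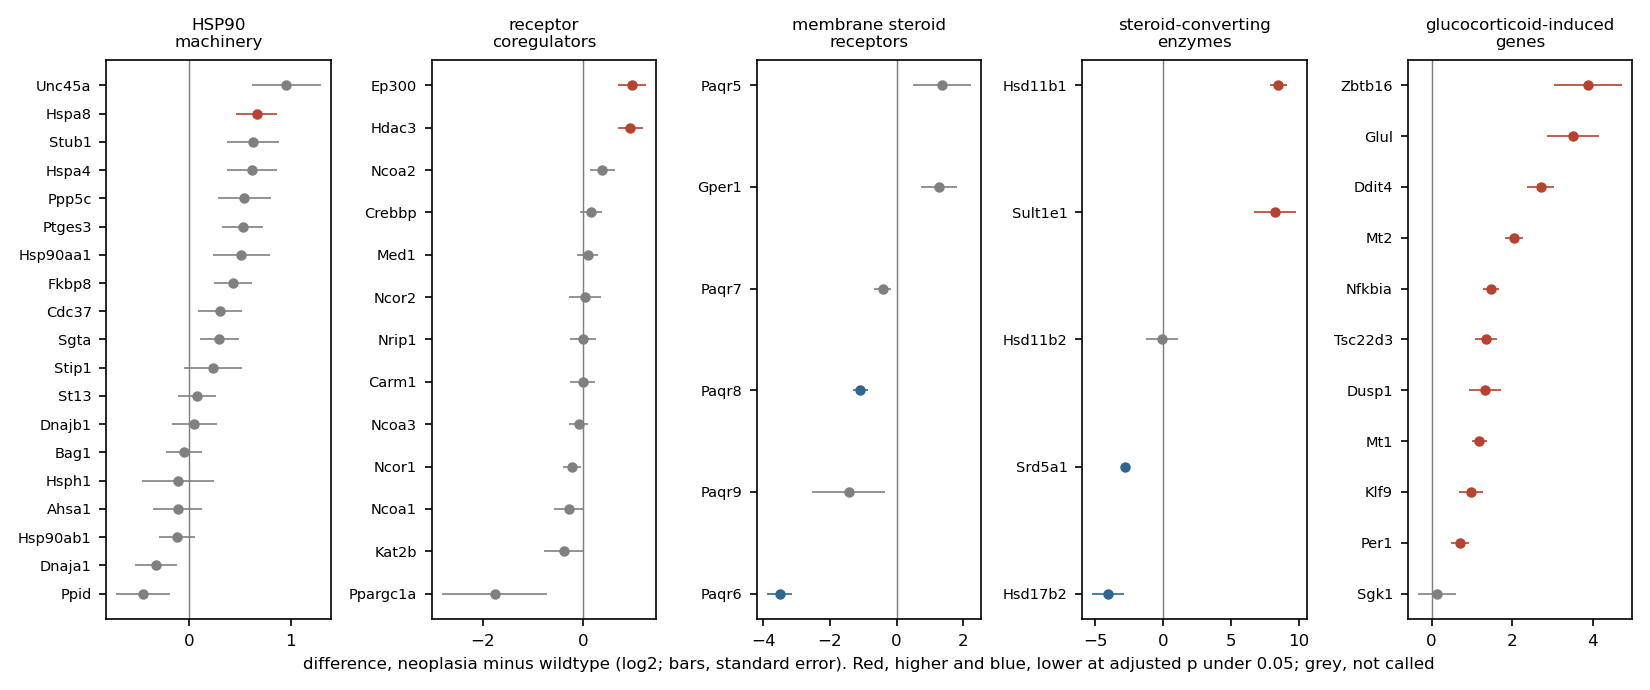
Difference of each tested gene, neoplasia minus wildtype on the log2 scale, in 5 lists of genes that act with steroid receptors or are induced by glucocorticoids; bars are limma's standard errors. Red points passed as higher and blue points as lower at an adjusted p of 0.05, and grey points did not pass. Of the glucocorticoid-induced genes 10 of 11 are red, and of the HSP90 machinery 1 of 19.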

How the data were processed

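RNA of 5 ovarian neoplasias and 3 wildtype ovaries was measured on 8 one-colour arrays of 1 slide, 1 sample each. Spot intensity was read from the deposited scanner output, which Agilent Feature Extraction 11.0.1.1 had background-subtracted, and per the file headers its probe grid was that of mm9. The authors' deposited value table holds log2 values, which matched the log2 of the mean intensity per accession and are not scaled between arrays. Partek is named in the submitters' processing notes, with no role given. Control spots and spots flagged as outliers by the scanner software were left out, spots of a probe were averaged, and log2 intensity minus the array's 75th percentile was used. Probes above background on at least 3 of 8 arrays were tested (34280 of 55681) by lmFit and eBayes of limma 3.58.1 (R 4.3.3), two-sided and without covariates, on 6 residual degrees of freedom; p-values were adjusted by Benjamini-Hochberg across these probes, and 0.05 was the threshold. Accessions were named through RefSeq (GRCm38.p6), which gave 26582 probes 1 symbol and left 29099 unnamed; all 9 members matched. For lists, the probe of highest mean stood for a gene. Sts, Insl3 and Cd68 had no probe under these names, and Muc1, Cyp26a1, Pax8 and Prl3c1 were not tested; 1 gene of the HSP90 list is not reported here. Pairs of probes were compared by exact permutation, using each of the 56 ways to split the arrays. The number of arrays limits the precision, and depth has no meaning here. No member probe was saturated. A probe above background in 1 group alone, such as those of Sult1e1, Acod1 and Prl8a2, entered the test through the group where it is high. "At least" folds replace a dim group's value on each array by the lowest signal well above background there, where that is higher than the probe.

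The members and lists were chosen with earlier results of these data known. Named genes are every probe of the members, up to 4 passing genes of each pathway list by size of change, markers, and the 3 genes most like each Pgr probe; Hsp90aa1, Hsp90ab1, Ncoa1 to Ncoa3, Gper1, Hsd11b2, Sgk1, Foxl2, Acta2 and Des were named beside them after their values were seen. The oviduct and cilium list and the setting with wildtype 3 alone were added after seeing the data. Replicate numbers do not pair the samples: deviations of same-numbered arrays correlated at -0.05, -0.02 and -0.01. The other settings tried were normexp (offset 50), quantile and spike-in scaling (6 of 10 spike-in probes), the deposited values, 2 other filters, trend and robust eBayes, array weights, replicate and slide row blocks, slide row 2 alone, a threshold of 0.01 and leaving out each array. Scripts were tested on simulated data.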

Additional observations from a re-analysis of the deposited data

How the results depend on the processing

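Across settings, 215 values of single probes kept their direction and side of the threshold, 25 lost a call, 7 gained one and 14 changed sign, of which Nr3c1 A_52_P254174 in slide row 2 alone passed as higher. The count of changed probes was 16681 with array weights, 6344 with the replicate block, 2051 with slide row as a block, 3417 at a threshold of 0.01, 778 with wildtype 3 as the only wildtype array, and 3768 to 12972 when 1 array was left out. Higher probes among the 13 numbered 0 when all 8 arrays had to be above background, 2 with array weights, 2 in slide row 2 alone, and 1 to 2 with 1 array left out. Lower probes numbered 2 with that filter, 1 with slide row as a block, 3 in slide row 2 alone, 0 with wildtype 3 as the only wildtype array, and 4 to 7 with 1 array left out. The filter on all 8 arrays removed both Pgr probes, Esr1 A_55_P2030883 and A_51_P474658, and Nr3c2 before testing. The called probes that remained, Esr1 A_52_P237077 and Esr2, kept their calls. Esr2 lost its call with the replicate block (limma adjusted p = 0.0727), as did Nr3c2 (limma adjusted p = 0.135), and no other member's call changed with that block.

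Signs turned for the Nr3c1 probes, to 0.54 and 0.97 in slide row 2 alone and with row as a block, and for A_52_P254174 with 1 array left out (-0.48 to 0.00699). They also turned for Nr3c2 (0.0784, normexp), Pgrmc1 (-0.12 quantile, -0.21 spike-in, -0.0824 deposited), Pgrmc2 (0.0459 array weights, -0.0714 to 0.0846 with 1 array left out) and Fkbp5 (-0.34, row 2 alone and row block). Nr3c1 against Nr3c2 was -0.42 with normexp and -0.15 with quantile normalization. In slide row 2 alone the Pgr pair was 11.64 apart, Esr1 against Esr2 -0.87 and Nr3c1 against Nr3c2 1.34. The cause of these changes was not tested, except that row 2 holds neoplasia 5 as its one neoplasia. The row as a block was not run for pairs, because row 1 holds no wildtype array and the value would be that of row 2. The deposited table gives no count of the member probes, since it holds 1 value per accession. Signals near background limit Nr3c2, the dimmer Pgr probe in neoplasia and the brighter one in wildtype.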
